A study of Homo sapiens with 12 samples.

Results

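The genes described here are 46 that copy DNA or supply its building blocks. They comprise the sliding clamp and its loaders, the replicative polymerases and primase, the factors that license and fire replication origins, fork protection and lagging-strand proteins, enzymes of nucleotide supply, and proteins that rebuild chromatin behind the fork. They were picked by name and role from the 19293 genes of the count table, by a rule that sets no threshold on measured values but was written with earlier results of these data known. The MCM2 to MCM7 helicase genes were left out of the set. All 46 were found and all 46 passed the filter on low counts, with a lowest count of 73 in any library. RNA sequencing was done on HT1080 cells, a human fibrosarcoma line, at passage 15 to 20. The 12 libraries fall into 4 groups of 3: a combination of IFNγ at 10 ng/ml with 20 Gy of irradiation, 20 Gy of irradiation alone, 10 ng/ml IFNγ alone, and untreated cells. All cells were harvested after 24 h.

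In a dividing cell the origin recognition complex, CDC6 and CDT1 load the MCM helicase onto DNA before S phase. The kinase CDC7 with its activator DBF4 then lets CDC45 and the GINS complex join the helicase, and the polymerases begin to copy. Most genes of this machinery are known to be transcribed at the G1/S boundary under E2F factors. IFNγ is a cytokine made by T and NK cells, and ionizing radiation breaks DNA and halts the cell cycle at checkpoints.

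RefSeq promoter windows on GRCh38.p14, running from 250 bases before to 50 bases after a gene's start, were found for 40 of the 46 genes. DSCC1, GINS4, POLD3, RPA2, RPA3 and DNA2 had no window in that table. The E2F-type words searched were TTTCCCGC, TTTGGCGC, TTTCGCGC and TTTGCCGC on both strands, and 17 of the 40 windows held at least 1, or 42.5%. Of the 14508 count-table genes with such a window, 4.3% held one. The 120 bases before the start are shown for 3 genes on which the results below turn, with E2F-type words in capitals. GINS2 (chr16:85688955-85689074, minus strand) and TIPIN (chr15:66356686-66356805, minus strand) showed the largest falls after radiation, and PCNA (chr20:5126623-5126742, minus strand) was the only one of the 46 to rise. The capitals in TIPIN are 2 overlapping words, a forward and a reverse TTTGGCGC.
GINS2: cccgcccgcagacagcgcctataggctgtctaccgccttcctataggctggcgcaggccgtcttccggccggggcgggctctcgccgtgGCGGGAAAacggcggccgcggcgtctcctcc
TIPIN: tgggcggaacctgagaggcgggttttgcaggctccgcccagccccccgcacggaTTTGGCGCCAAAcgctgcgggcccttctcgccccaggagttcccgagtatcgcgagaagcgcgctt
PCNA: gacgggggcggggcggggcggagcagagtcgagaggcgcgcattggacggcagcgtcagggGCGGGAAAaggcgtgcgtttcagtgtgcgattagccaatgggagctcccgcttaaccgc
All 3 windows carry the motif, including that of the gene that moved the other way. Over the set, the 17 genes with an E2F-type word had a median log2 fold change of -0.45 after radiation and the 23 without had -0.46, with 15 of 17 and 20 of 23 called lower. A word is a match of letters and not a site shown to be bound, and its absence from the window says nothing of the factor. The CCAAT box (CCAAT on either strand) was in 47.5% of the 40 windows and in 36.4% of the 14508. The cell cycle homology words TTTGAA and TTTAAA were in 12.5% and 19.0%.

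Total counts per library ran from 9675126 to 11010656. Levels are given as CPM, the counts per 1e6 counts of the TMM-scaled total. For the cell type markers the total is the library total without that scaling. A gene is called at an edgeR quasi-likelihood p under 0.05 after Benjamini-Hochberg adjustment over 12160 tested genes. Mitochondrially encoded transcripts took 4.25% to 4.34% of counts in combination, 4.44% to 4.46% in irradiated, 3.36% to 3.59% in IFNγ-treated and 3.53% to 3.61% in untreated libraries. This share moves with radiation, and its part in the results below was not tested. Of 8 listed mesenchymal markers all were detected, S100A4 at no more than 2.08 CPM, and their sum ran from 8941 to 10803 CPM. The epithelial sum of 5 markers was nearly all KRT8, with CLDN4 at 1.34 to 4.34 CPM and EPCAM, CDH1 and KRT19 at 0.21 CPM or less. The 3 endothelial markers summed to at most 1.07 CPM. The 5 leukocyte markers summed to 4.65 CPM in radiation replicate 2 and to at most 1.10 CPM in every other library. The set's counts of calls for radiation and for the combination against radiation are therefore also given without that library, as is the radiation median. Counts by role, promoter motif, complex and list of related genes use all libraries. The labels do not say whether replicates are separate cultures, so p-values rest on the spread among libraries and that spread may be technical.

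Radiation lowered most of the replication set. Against untreated cells 41 of the 46 genes fell, 1 rose (PCNA) and 4 did not pass the test. Of the 12160 genes tested, 28.2% were called lower and 27.9% higher. The median log2 fold change was -0.46 for the 46 genes and 0.01 for all genes tested. Among the 41, 7 fell at least 2-fold, which 1.16% of all tested genes did, another 14 fell by 0.5 to 1 on the log2 scale, and 20 fell by less than 0.5. Without radiation replicate 2 the counts were 39 lower, 7 of them at least 2-fold, and 1 higher, the median was -0.47, and the log2 fold changes of the 46 moved by at most 0.084. The calls lost without it were GINS4 (adjusted p = 0.118) and RPA3 (adjusted p = 0.159). Over the 18 alternative settings GINS4 lost its call in 8, RPA3 in 6 and CDT1 in 2. In sum the set took 0.310% ± 0.0015 of counts in irradiated and 0.408% ± 0.0060 in untreated libraries (SD, n = 3 each). In bulk RNA, fewer cells in S phase and less of each transcript per cell cannot be told apart. The mesenchymal marker sum stood at 10467 to 10803 CPM in irradiated and 9941 to 10222 CPM in untreated libraries. VIM was lower, at 4294 to 4331 against 5102 to 5372 CPM. FN1, SPARC, COL6A1, COL6A2, CD44 and TPM2 were higher, and S100A4 overlapped. KRT8 stood at 263 to 276 CPM in irradiated and 238 to 261 CPM in untreated libraries. The part of these markers in the result was not tested.

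**Figure D1:**
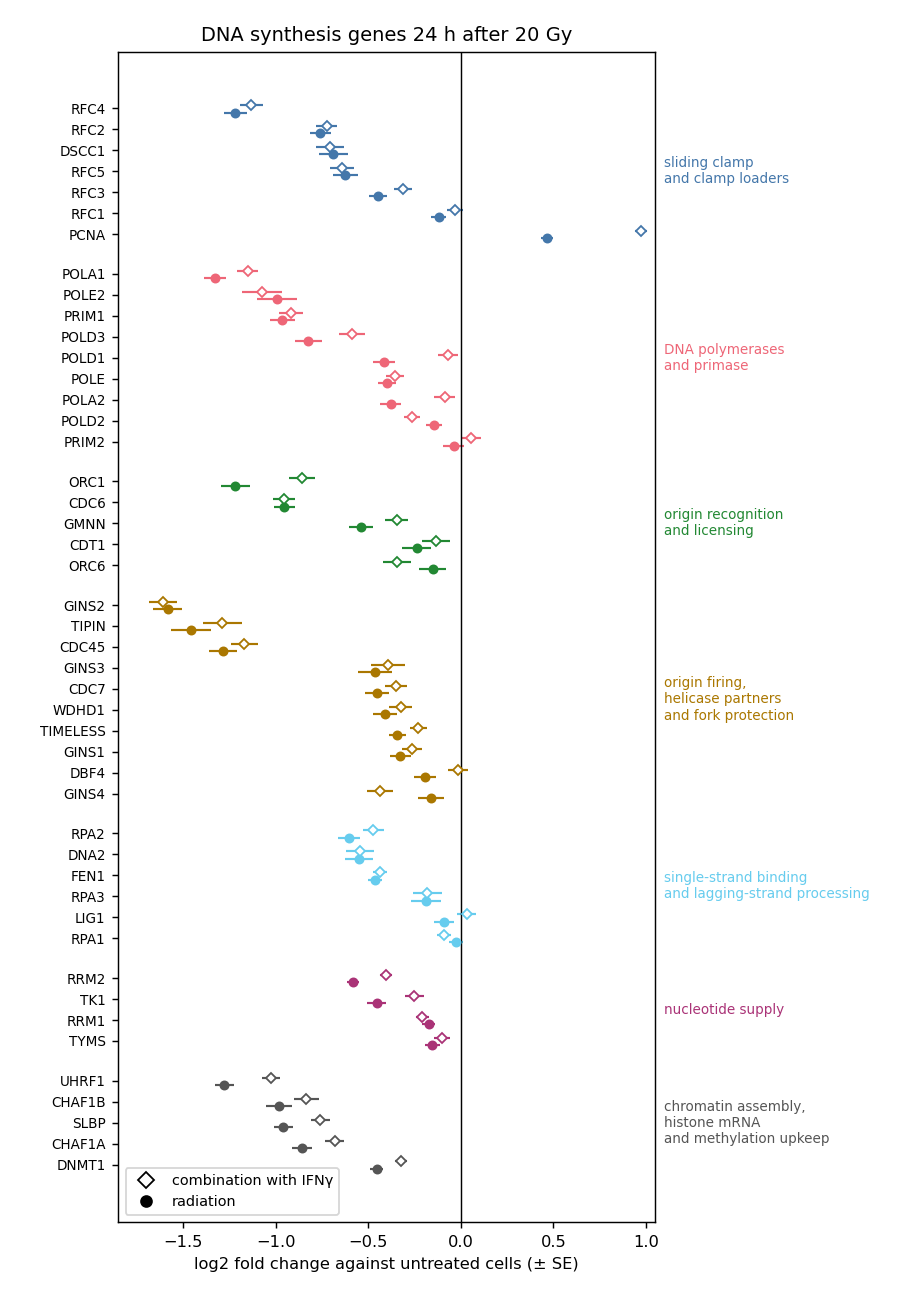
Log2 fold change against untreated cells (horizontal axis, ± SE) of the 46 genes, grouped by role down the page, for cells given radiation with IFNγ (open diamonds) and for cells given radiation alone (filled circles). PCNA alone lies clearly right of 0, at 0.97 with the combination and 0.47 with radiation, and GINS2 lies farthest left, at -1.61 with the combination and -1.58 with radiation.

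Of the clamp and its loaders, 6 of 7 genes fell and 1 rose after radiation. PCNA, the ring that holds polymerases on DNA and also serves in DNA repair, had 297, 286 and 298 CPM in irradiated libraries, against 216, 206 and 215 CPM in untreated libraries. Every irradiated library was above every untreated one, and the log2 fold change was 0.47 ± 0.03 (SE, adjusted p = 5.33e-18). RFC4, a small subunit of the complex that opens and loads the clamp, had 27.2, 30.3 and 30.7 CPM in irradiated libraries, against 67.6, 67.6 and 70.1 CPM in untreated libraries. The groups lay far apart, and the log2 fold change was -1.22 ± 0.06 (adjusted p = 2.29e-24). RFC2, another small subunit, had 41.3, 44.0 and 41.4 CPM in irradiated libraries, against 70.3, 71.1 and 73.4 CPM in untreated libraries (log2 fold change -0.76 ± 0.06, adjusted p = 1.97e-17). The clamp's transcript thus moved opposite to the transcripts of its loaders. RFC3 (-0.44), RFC5 (-0.62) and DSCC1 (-0.69), the last a subunit of an alternative loader used in sister chromatid cohesion, also fell, and RFC1, the large subunit, fell by 0.12.

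Of the polymerase and primase genes, 8 of 9 fell. POLA1, the catalytic subunit of the polymerase that starts each new strand, had 28.7, 29.8 and 30.1 CPM in irradiated libraries, against 73.8, 73.5 and 75.5 CPM in untreated libraries. This was a log2 fold change of -1.33 ± 0.06 (adjusted p = 5.02e-27), with no overlap between groups. POLE2, an accessory subunit of the leading-strand polymerase, had 8.47, 7.73 and 10.2 CPM in irradiated libraries, against 18.0, 17.2 and 17.5 CPM in untreated libraries (log2 fold change -0.99 ± 0.11, adjusted p = 1.02e-11). PRIM1, the catalytic primase subunit (-0.96), and POLD3, an accessory subunit of the lagging-strand polymerase (-0.82), fell by nearly as much, POLD1, POLE and POLA2 by 0.41, 0.40 and 0.38, and POLD2 by 0.14. PRIM2, the regulatory primase subunit, had 56.4, 53.3 and 52.9 CPM in irradiated libraries, against 54.4, 55.6 and 57.0 CPM in untreated libraries. Its ranges overlapped, and its log2 fold change was -0.04 with an approximate 95% interval of -0.15 to 0.07.

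The licensing genes fell in 4 of 5 cases. ORC1, the largest subunit of the origin recognition complex, had 17.1, 16.8 and 15.7 CPM in irradiated libraries, against 38.0, 37.7 and 39.5 CPM in untreated libraries. All 3 irradiated libraries were at least 2-fold below every untreated one, and the log2 fold change was -1.22 ± 0.08 (adjusted p = 1.33e-20). CDC6, which works with it to load the helicase, had 41.0, 44.6 and 45.4 CPM in irradiated libraries, against 83.8, 90.4 and 79.4 CPM in untreated libraries (log2 fold change -0.95 ± 0.06, adjusted p = 3.46e-21). CDT1, the other loading factor, fell by 0.24, and geminin (GMNN), the inhibitor of CDT1, fell by 0.54. ORC6, the smallest subunit of the recognition complex, had 29.7, 28.8 and 25.6 CPM in irradiated libraries, against 33.1, 31.6 and 28.5 CPM in untreated libraries. Its groups overlapped (log2 fold change -0.15 ± 0.07, adjusted p = 0.0757), although it was called lower without untreated replicate 3 (adjusted p = 0.0256) or without radiation replicate 1 (adjusted p = 0.0462).

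All 10 genes of origin firing and fork protection fell, and they held the largest falls of the set. GINS2, a subunit of the complex that joins the helicase when an origin fires, had 15.6, 15.3 and 12.7 CPM in irradiated libraries, against 45.1, 42.5 and 42.9 CPM in untreated libraries. The log2 fold change was -1.58 ± 0.08 (adjusted p = 5.81e-25), the 42nd lowest of all 12160 tested genes. TIPIN, which with TIMELESS steadies the moving fork, had 9.17, 8.34 and 7.10 CPM in irradiated libraries, against 24.6, 22.0 and 20.9 CPM in untreated libraries (log2 fold change -1.46 ± 0.11, adjusted p = 1.70e-17). Both genes had every irradiated library at least 2-fold below every untreated one. CDC45, the third partner of the active helicase, fell by 1.28 on the log2 scale. The other 7 fell by less, from -0.16 in GINS4 to -0.47 in GINS3, with CDC7 at -0.45, its activator DBF4 at -0.19, WDHD1, which links polymerase alpha to the fork, at -0.41, TIMELESS at -0.34 and GINS1 at -0.33.

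Single-strand binding and lagging-strand genes fell in 4 of 6 cases, none by 2-fold. RPA2, the middle subunit of the protein that coats single-stranded DNA, had 43.5, 38.9 and 38.9 CPM in irradiated libraries, against 61.9, 62.2 and 60.0 CPM in untreated libraries (log2 fold change -0.60 ± 0.06, adjusted p = 2.76e-13). DNA2, a nuclease and helicase that trims flaps, had 21.0, 20.9 and 20.3 CPM in irradiated libraries, against 28.1, 30.5 and 32.6 CPM in untreated libraries (log2 fold change -0.55 ± 0.08, adjusted p = 1.43e-08). Neither gene's groups overlapped. The flap nuclease FEN1 fell by 0.46 and RPA3, the smallest RPA subunit, by 0.19. RPA1, the large RPA subunit, had 145, 146 and 145 CPM in irradiated libraries, against 150, 144 and 150 CPM in untreated libraries (log2 fold change -0.03, 95% interval -0.10 to 0.05). LIG1, the ligase that seals nicks, had 58.7, 58.6 and 60.9 CPM in irradiated libraries, against 67.1, 60.9 and 61.9 CPM in untreated libraries (log2 fold change -0.09, 95% interval -0.20 to 0.01). Neither passed the test.

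All 4 nucleotide supply genes fell. RRM2, the S-phase subunit of ribonucleotide reductase, had 249, 249 and 250.1 CPM in irradiated libraries, against 375, 378 and 365 CPM in untreated libraries (log2 fold change -0.58 ± 0.03, adjusted p = 1.49e-22). TK1, the thymidine kinase of dividing cells, had 56.5, 53.9 and 52.5 CPM in irradiated libraries, against 77.6, 72.7 and 72.9 CPM in untreated libraries (log2 fold change -0.46 ± 0.05, adjusted p = 9.98e-11). Both were lower in 3 of 3 irradiated libraries than in any untreated one. RRM1, the large reductase subunit, fell by only 0.17, and thymidylate synthase (TYMS) by 0.15.

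All 5 genes of chromatin assembly, histone mRNA and methylation upkeep fell, with the lowest median of the 7 roles at -0.96. UHRF1, which brings the maintenance methyltransferase to newly copied DNA, had 56.0, 57.6 and 58.3 CPM in irradiated libraries, against 149, 138 and 129 CPM in untreated libraries (log2 fold change -1.28 ± 0.05, adjusted p = 1.91e-29). CHAF1B, a subunit of the CAF-1 histone chaperone, had 24.9, 23.6 and 23.6 CPM in irradiated libraries, against 48.7, 46.7 and 47.0 CPM in untreated libraries (log2 fold change -0.98 ± 0.07, adjusted p = 2.71e-18). The groups of both genes were wide apart. SLBP, which binds histone mRNAs, fell by 0.96, CHAF1A, the large CAF-1 subunit, by 0.86, and the methyltransferase DNMT1 itself by 0.46.

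**Figure D2:**
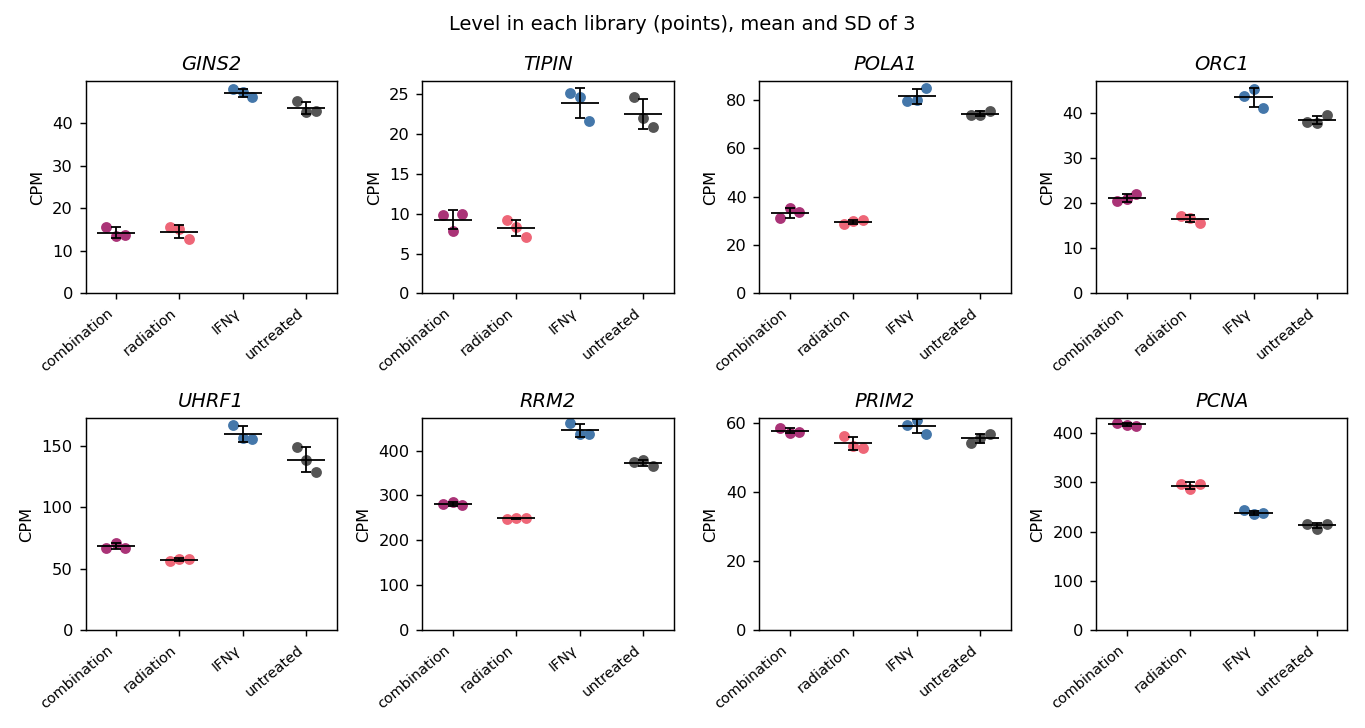
Level in CPM (vertical axis, from 0) of 8 genes in each of the 12 libraries (points), with the mean and SD of 3 (bars), for combination, radiation, IFNγ and untreated cells from left to right. In GINS2, TIPIN, POLA1, ORC1, UHRF1 and RRM2 both irradiated groups lie below both unirradiated ones, PRIM2 lies between 52.9 and 61.0 CPM in every library, and PCNA is highest in the combination at 415 to 421 CPM.

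Subunits of one complex fell by unequal amounts. In 10 of the 11 complexes with 2 or more members here, the approximate 95% intervals of the lowest and the highest subunit did not overlap. The widest gap was in GINS, where GINS2 had a log2 fold change of -1.58 (-1.74 to -1.43) and GINS4 -0.16 (-0.30 to -0.03). In the polymerase alpha and primase complex POLA1 stood at -1.33 (-1.44 to -1.21) and PRIM2 at -0.04 (-0.15 to 0.07). TIPIN and TIMELESS differed by 1.12 on the log2 scale, RFC4 and RFC1 by 1.10, and ORC1 and ORC6 by 1.06 (of the recognition complex only these genes are in the set). Smaller gaps separated POLD3 from POLD2 (0.68), POLE2 from POLE (0.60), RPA2 from RPA1 (0.58), RRM2 from RRM1 (0.41) and CDC7 from DBF4 (0.26). CHAF1B and CHAF1A, at -0.98 and -0.86, had overlapping intervals. The lowest and highest subunits were picked by their values, so these gaps are a description. No such count was made for unrelated genes. Log2 fold changes of all tested genes also spread, with an interquartile range of -0.21 to 0.25. The count of 10 is therefore not shown to be particular to complexes. In GENCODE 29, 15 of the 46 genes share exon positions with another protein-coding gene, among them GINS2, RFC4, PRIM1, FEN1, CHAF1A and TYMS. The counting's strand setting is not given in the sources used here, so their counts may include reads of the neighbour.

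Radiation given on top of IFNγ was compared with IFNγ alone, a contrast that shares no library with the one above. Again 41 of the 46 fell and PCNA alone rose, against 30.4% of all tested genes called lower and 30.3% higher. The median log2 fold change was -0.49 for the set and 0.00 for all genes. The set holds 9 genes that fell at least 2-fold, which 1.18% of all tested genes did. GINS2 had 15.7, 13.5 and 13.7 CPM in combination libraries, against 48.1, 47.2 and 46.1 CPM in IFNγ-treated libraries (log2 fold change -1.72 ± 0.08, adjusted p = 4.08e-27). PCNA had 421, 417 and 415 CPM in combination libraries, against 243, 235 and 237 CPM in IFNγ-treated libraries (log2 fold change 0.81 ± 0.03, adjusted p = 3.09e-29). Called lower in both states of IFNγ were 40 of the 46 genes, beside 23.8% of all tested genes, and called higher in both was PCNA, beside 23.1%. ORC6, which missed the threshold without IFNγ, fell by 0.36 with it, while TYMS (-0.08, adjusted p = 0.0754) passed without it and not with it. The test of that difference, described below, gave an adjusted p of 0.343 for ORC6 and 0.627 for TYMS. Across the 46 genes the radiation effects with and without IFNγ had the same sign in 46 and a Pearson r of 0.97 (Spearman rho 0.97), values that come from 1 fit and from genes that are not independent replicates.

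**Figure D3:**
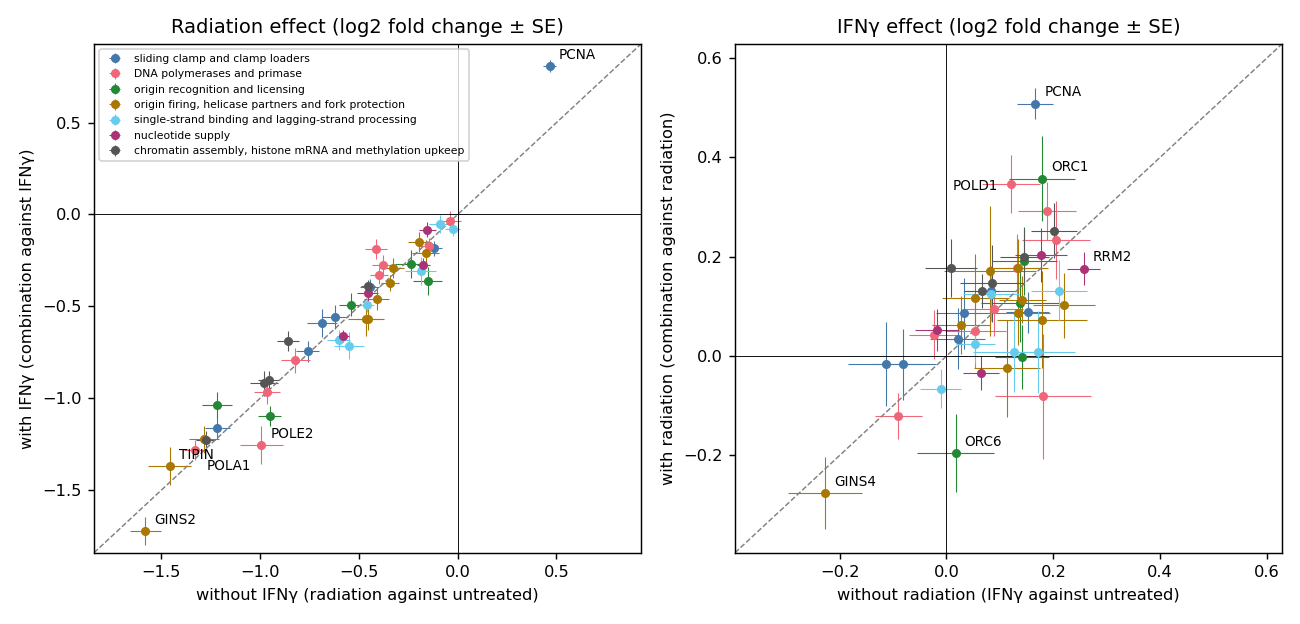
Each point is 1 of the 46 genes, with its log2 fold change ± SE: on the left the radiation effect with IFNγ (vertical) and without it (horizontal), on the right the IFNγ effect with radiation (vertical) and without it (horizontal). The dashed line marks equal effects. Points on the left follow the line from GINS2, at -1.72 with IFNγ and -1.58 without, up to PCNA, which lies above it at 0.81 with IFNγ and 0.47 without, and points on the right lie between -0.28 and 0.36 except PCNA at 0.51 with radiation.

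Whether the radiation effect itself differed with IFNγ was tested by the interaction, (combination minus IFNγ) minus (radiation minus untreated). PCNA was called, at 0.34 ± 0.05 (adjusted p = 1.33e-06), and was the only one of the 46. Of the 12160 genes tested, 1.38% had a positive call and 0.995% a negative one, and the positive share of called genes was 58.1% with TMM and 69.4% with library totals. The positive and negative calls numbered 168 and 121, against 84 and 75 with DESeq2, 91 and 70 without radiation replicate 2, and 102 and 77 without combination replicate 2. Negative calls also fell to 75 without IFNγ replicate 1 and 77 without radiation replicate 1. Each of the 12 fits that left out 1 library also called PCNA, at 0.32 to 0.37. Unadjusted p fell under 0.05 in 4 of the 46 genes: PCNA, POLD1 (0.23 ± 0.08, adjusted p = 0.133), CHAF1A (0.17, adjusted p = 0.270) and RRM1 (-0.10, adjusted p = 0.327). The median of the set was 0.03, against 0.00 for all genes. A missed threshold does not show that the other 45 effects were equal.

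The combination was also set against untreated cells, which it shares as controls with the radiation contrast. Of the 46 genes 38 fell, PCNA rose and 7 did not pass, beside 31.2% of all tested genes called lower and 30.9% higher. The median was -0.37 for the set and 0.00 for all genes. At least 2-fold lower were 7 of the 46 and 1.69% of all tested genes. PCNA stood at a log2 fold change of 0.97 ± 0.03, against 0.47 with radiation alone. RPA1 (-0.09), RPA3 (-0.18) and TYMS (-0.10) were called here but lost the call in 8, 6 and 5 of the 18 alternatives. The 7 without a call were RFC1, POLA2, PRIM2, POLD1, CDT1, DBF4 and LIG1, with log2 fold changes from -0.13 to 0.05. POLD1 had -0.07 with the combination and -0.41 with radiation alone, and POLA2 had -0.09 and -0.38.

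IFNγ alone moved the set little and mostly upward. Of the 46 genes 14 rose and 1 fell, beside 15% of all tested genes called higher and 14.1% lower, and the median was 0.12 for the set and 0.00 for all genes. RRM2 had 462, 438 and 436 CPM in IFNγ-treated libraries, against 375, 378 and 365 CPM in untreated libraries (log2 fold change 0.26 ± 0.03, adjusted p = 9.34e-10), the largest rise of the set. CDC7 had 53.9, 52.9 and 54.5 CPM in IFNγ-treated libraries, against 44.9, 45.3 and 48.4 CPM in untreated libraries (0.22 ± 0.06, adjusted p = 0.00226). RPA2 had 74.1, 71.4 and 67.5 CPM in IFNγ-treated libraries, against 61.9, 62.2 and 60.0 CPM in untreated libraries (0.21 ± 0.05, adjusted p = 0.00138). These groups did not overlap, and the rises were small. UHRF1 had 167, 156 and 156 CPM in IFNγ-treated libraries, against 149, 138 and 129 CPM in untreated libraries (0.20 ± 0.04, adjusted p = 0.000176). The other called genes, PCNA, RFC1, POLA1, POLA2, POLD3, ORC1, CDC6, TIMELESS, TK1 and SLBP, rose by 0.13 to 0.20. GINS4, the smallest-moving GINS gene after radiation, was the one to fall, with 33.6, 31.3 and 30.8 CPM in IFNγ-treated libraries, against 37.2, 34.0 and 41.0 CPM in untreated libraries (-0.23 ± 0.07, adjusted p = 0.00907).

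The IFNγ counts rest on small effects and moved with the processing. Scaled by library totals alone 5 genes rose and 2 fell, beside 1227 and 2717 of all 12160 tested genes. DESeq2 called 9 higher, beside 1399 of the 12160. Without IFNγ replicate 1 the counts were 8 higher and 2 lower, beside 1455 and 1423 of 12258 tested genes. Without untreated replicate 3 GINS4 was not called (-0.16, adjusted p = 0.122) and none fell. POLA1, ORC1 and CDC6 each lost their call in 6 of the 18 alternatives. POLD3, with 44.5, 40.2 and 40.4 CPM in IFNγ-treated libraries against 36.2, 36.6 and 35.7 CPM in untreated libraries, had 0.20 ± 0.06 (adjusted p = 0.00964) but missed the threshold with library totals (0.15), with DESeq2 (0.20) and without IFNγ replicate 1 (0.15). Over all called genes 51.6% were higher in IFNγ-treated cells with TMM and 31.1% with library totals. KRT8 also moved with IFNγ, at 323 to 339 CPM in IFNγ-treated and 238 to 261 CPM in untreated libraries. The mesenchymal sum stood at 8941 to 9070 CPM in IFNγ-treated and 9941 to 10222 CPM in untreated libraries, and their part was not tested.

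Adding IFNγ to radiation also gave small rises. Against radiation alone 15 of the 46 genes rose and 2 fell in the combination, beside 14.5% of all tested genes called higher and 12.4% lower, with a median of 0.10 for the set and -0.01 for all genes. PCNA rose most: it had 421, 417 and 415 CPM in combination libraries, against 297, 286 and 298 CPM in irradiated libraries (log2 fold change 0.51 ± 0.03, adjusted p = 3.38e-20). ORC1 had 20.4, 21.0 and 22.0 CPM in combination libraries, against 17.1, 16.8 and 15.7 CPM in irradiated libraries (0.36 ± 0.09, adjusted p = 0.000814). POLD1, the catalytic subunit of the lagging-strand polymerase, had 61.9, 62.2 and 66.8 CPM in combination libraries, against 50.5, 52.5 and 47.2 CPM in irradiated libraries (0.35 ± 0.06, adjusted p = 3.13e-06). None of these groups overlapped, and ORC1 in the combination remained far below its untreated 37.7 to 39.5 CPM. POLA2, the second subunit of polymerase alpha, had 52.2, 52.5 and 51.4 CPM in combination libraries, against 41.2, 41.3 and 44.9 CPM in irradiated libraries (0.29 ± 0.06, adjusted p = 6.23e-05). UHRF1, SLBP, CHAF1A and DNMT1 of the chromatin genes also rose, by 0.13 to 0.25, of which CHAF1A lost its call in 5 of 18 alternatives and SLBP in 1. Among the other called rises POLA1 lost its call in 8 of the 18, RFC3 and GMNN in 6 each, and POLD3 and DBF4 in 4 each. The remaining called rises kept theirs in every alternative. Between these groups KRT8 stood at 393 to 406 CPM in combination and 263 to 276 CPM in irradiated libraries. The mesenchymal sum stood at 9931 to 9944 and 10467 to 10803 CPM. Of its 8 markers SPARC was lower, at 793 to 810 and 1145 to 1205 CPM. FN1, CD44 and TPM2 were lower too, VIM and COL6A2 were higher, and COL6A1 and S100A4 overlapped. Their part in the result was not tested.

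GINS4 again fell, with 26.5, 27.3 and 28.8 CPM in combination libraries, against 35.0, 32.5 and 32.7 CPM in irradiated libraries (-0.28 ± 0.07, adjusted p = 0.00258). It was the only gene of the set called lower by IFNγ with and without radiation, beside 7.1% of all tested genes. Called higher in both were 9 of the 46, beside 9.8% of all tested genes. POLD2 had 98.7, 92.0 and 94.3 CPM in combination libraries, against 102, 102 and 106 CPM in irradiated libraries (-0.12 ± 0.05, adjusted p = 0.0439), a call that DESeq2, the unfiltered fit and 5 of the 12 fits without 1 library did not make. The IFNγ effects with and without radiation had the same sign in 39 of the 46 genes, with a Pearson r of 0.61 (Spearman rho 0.56). As for radiation, these values cover the set only and come from 1 fit and from genes that are not independent replicates. With library totals 9 genes rose and 4 fell, beside 1398 and 2278 of all 12160 tested genes. DESeq2 called 9 higher and 1 lower, beside 1361 and 1034 of the 12160. When radiation replicate 3 was left out 9 rose, beside 1564 of 12250 tested genes. Without radiation replicate 2 the counts were 12 higher and 1 lower, beside 1518 and 1259 of 12250 tested genes. Of all called genes 53.9% were higher in the combination with TMM and 38.0% with library totals.

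**Figure D4:**
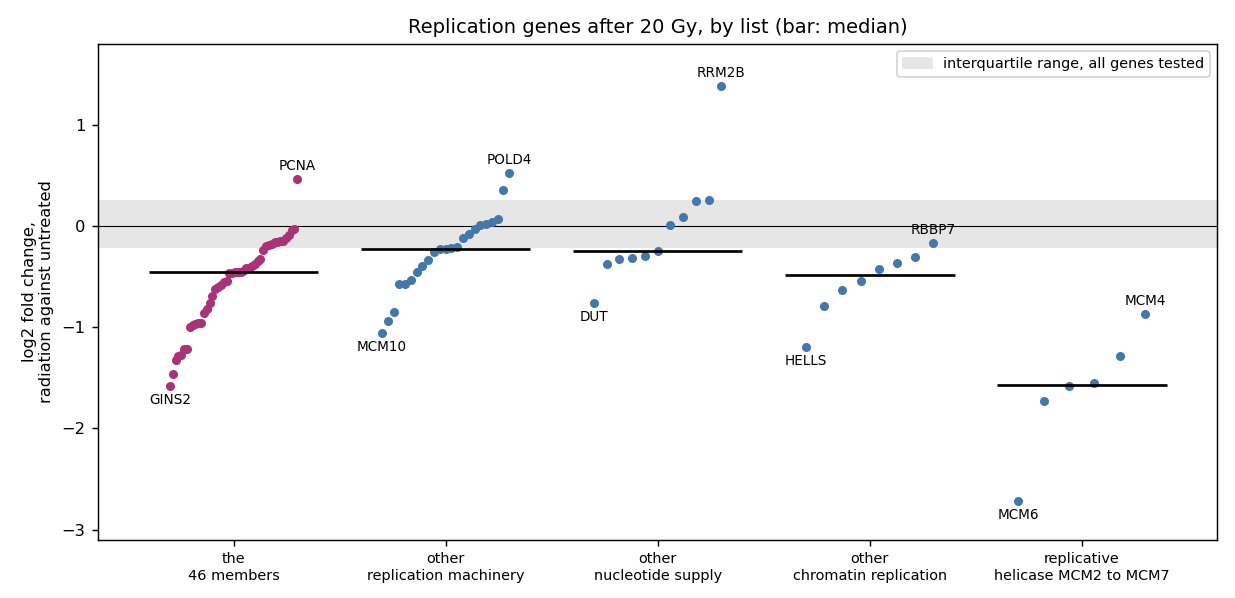
Log2 fold change after radiation against untreated cells (vertical axis) of the 46 genes and of 4 lists of other replication genes, 1 point per gene, with the median as a bar and the interquartile range of all 12160 tested genes shaded. The MCM2 to MCM7 genes lie lowest, with a median of -1.57. RRM2B and POLD4 lie highest in their lists, in which 5 of 11 nucleotide genes and 6 of 23 replication machinery genes lie above 0.

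Related genes outside the set were grouped in 4 lists and read in the same radiation contrast. Of all 12160 tested genes that contrast called 28.2% lower and 27.9% higher, with a median of 0.01. Of 23 further replication machinery genes 15 fell and 2 rose, with a median of -0.22. MCM10, which helps the helicase start, fell by 1.05 and the checkpoint mediator CLSPN by 0.94, while POLD4, the smallest subunit of polymerase delta, rose by 0.52 and topoisomerase TOP2A by 0.35. Of 11 further nucleotide genes 6 fell, with the dUTPase gene DUT at -0.76 and the CTP synthase gene CTPS1 at -0.38, and 2 rose. RRM2B, the reductase subunit known to be induced by p53, had 200, 201 and 198 CPM in irradiated libraries, against 72.9, 78.2 and 78.6 CPM in untreated libraries (log2 fold change 1.38 ± 0.04, adjusted p = 5.80e-34), where its relative RRM2 fell. NME1, a nucleoside diphosphate kinase, rose by 0.26. All 8 further chromatin genes fell, most in HELLS (-1.19) and SUV39H1 (-0.79). All 6 MCM2 to MCM7 genes fell, most in MCM6 (-2.72) and MCM5 (-1.72). After IFNγ alone SAMHD1, which breaks down deoxynucleotides, had 189, 156 and 157 CPM, against 16.5, 19.8 and 20.8 CPM in untreated libraries (log2 fold change 3.14 ± 0.15, adjusted p = 2.83e-07), an effect larger than any among the 46 genes.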

How the data were processed

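RNA from 12 HT1080 libraries in 4 groups of 3 was measured as counts per gene. The authors deposited 1 table of raw, whole-number counts with no normalization, and each column was matched to a library by its title. The submitters' processing notes list TopHat2 2.0.13, Cuffdiff 2.2.1, Cufflinks and FastQC 0.11.3, and the builds hg19 and GRCh37. Which tool counted, with what strand setting and annotation, is not given in the sources used here. Per the labels' protocols, ribosomal RNA was depleted and stranded libraries were made, whereas the series' design text names an mRNA protocol.

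Counts were analysed in R 4.3.3 with edgeR 4.0.16: filterByExpr, TMM scaling, 1 robust quasi-likelihood fit over all 12 libraries (common biological coefficient of variation 2.71%), and Benjamini-Hochberg adjustment over 12160 genes with calls at an adjusted p under 0.05. Each standard error was approximated as the size of the log2 fold change over the square root of F, and 95% intervals are 1.96 of them. The fit was tested on simulated data. CPM use TMM-scaled totals, except those of the cell type markers, which use library totals without that scaling. Replicate pairs differed by 1.13 to 2.67 chi-square per degree of freedom, so no library was a copy.

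Values per library are given for the 2 genes of each role with the largest radiation effect, for those that rose or were not called there, for interaction calls, and for the largest IFNγ effects. Other genes are given by their fold change, range or count. Alternatives were library totals, RLE factors, no filter, DESeq2 1.42.0, fits of the compared groups alone, a replicate block and each library left out. The genes, roles and lists were chosen with earlier results of these data known. From the list of further nucleotide genes 1 gene is not reported here. Promoter windows are RefSeq's, 1 per gene, the nearest to a GENCODE 29 principal start.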

Additional observations from a re-analysis of the deposited data

Results flagged for a closer look

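The radiation effect differed with IFNγ, by a test of the difference, in PCNA and in TOP2A. For PCNA the effect was larger with IFNγ by 0.342 on the log2 scale (edgeR adjusted p = 1.33e-06). PCNA stood at 415 to 421 CPM in combination and 235 to 243 CPM in IFNγ-treated libraries. Irradiated libraries had 286 to 298 CPM and untreated libraries 206 to 216 CPM. For TOP2A, the topoisomerase that untangles copied chromosomes, the radiation effect was larger with IFNγ by 0.155 (adjusted p = 0.0195). TOP2A had 1021, 994 and 1013 CPM in combination and 858, 851 and 891 CPM in irradiated libraries. It had 701, 716 and 711 CPM in IFNγ-treated and 661, 692 and 681 CPM in untreated libraries. The TOP2A call was lost without radiation replicate 1 (0.148, adjusted p = 0.0655) and without radiation replicate 2 (0.143, adjusted p = 0.0880). TOP2A was the only gene called in this test among the 42 related genes outside the MCM2 to MCM7 list.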

How the results depend on the processing

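Counts over the 46 genes for radiation, for the combination against untreated or IFNγ, and for the interaction stayed within 1.5 times of the reported count under every alternative that could be fitted; fits of the compared groups alone could not give the interaction. Over the 46 genes in all 6 comparisons, 4776 of 4922 alternative values stayed on the same side of the threshold, 115 lost and 31 gained a call, and 0 reversed. For 17 values of related genes, alternatives chosen after seeing the data left 303 of 305 in place, the other 2 being TOP2A in the interaction. Genes of the set called higher by IFNγ alone numbered 14, against 5 with library totals and 9 with DESeq2, and 8 to 15 with 1 library left out; those called lower numbered 1, against 2 with library totals and 0 to 2 with 1 library left out. In the combination against radiation 15 were higher, against 9 with library totals and 9 with DESeq2, and 9 to 16 with 1 library left out; 2 were lower, against 4 with library totals, 1 without the filter, 1 with DESeq2, and 1 to 3 with 1 library left out. Over all tested genes, library totals raised the lower calls to 2717 (from 1715 with TMM) for IFNγ against untreated and to 2278 (from 1509) for the combination against radiation. The higher calls of all tested genes went to 1227 (from 1829) and to 1398 (from 1761). The cause was not tested. The replicate numbers did not pair the libraries: 0 of 18 same-number pairs correlated over 0.1 (-0.071 to 0.054), and with a replicate block 41 of the 46 genes fell after radiation and 16 rose after IFNγ. With only the 250 bases before the start, 12 of 40 promoters held an E2F-type word. The lowest counts, in TIPIN (73) and POLE2 (77), limit their precision.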

Other observations

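Among related genes, 2 moved opposite to other subunits of the same enzyme after radiation in both states of IFNγ. POLD4 had 34.3, 35.8 and 36.9 CPM in combination libraries and 32.1, 34.0 and 34.1 CPM in irradiated libraries, against 21.9, 21.7 and 19.1 CPM in IFNγ-treated and 25.1, 20.3 and 24.5 CPM in untreated libraries. Its radiation effect was 0.77 ± 0.08 with IFNγ and 0.52 ± 0.08 without (edgeR adjusted p = 5.68e-13 and 4.62e-08), while POLD1, POLD2 and POLD3 fell. RRM2B had 223, 209 and 215 CPM in combination libraries, against 77.2, 87.6 and 87.4 CPM in IFNγ-treated libraries (log2 fold change 1.36 ± 0.04, adjusted p = 3.24e-34), while RRM2 and RRM1 fell. SAMHD1 stood at 146, 152 and 186 CPM in combination libraries, against 21.4, 23.8 and 22.6 CPM in irradiated libraries. These genes were named by the size of their change.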
